A study of Mus musculus with 12 samples.

Results

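The markers of adult neurogenesis described here are 10 genes of the 31766 listed for the dorsal or the ventral hippocampus of adult mice, and they were chosen by symbol: Mki67, Top2a, Eomes, Igfbpl1, Neurod1, Sox11, Sox4, Dcx, Draxin and Neurod2. All 10 are listed for both regions. Levels are given in CPM (counts scaled to the sample's total) and differences as log2 fold changes with their standard error (SE). The animals came from a cross of a floxed Tet3 line (Tet3 fl/fl, C57BL/6N) with a B6;129S6 line that carries Camk2a-CreERT2, a tamoxifen-inducible Cre driven by the promoter of Camk2a, a kinase gene of excitatory forebrain neurons. Knockout animals (cKO) were homozygous for the floxed allele and heterozygous for the Cre. Controls were homozygous for the floxed allele and had no Cre. The labels give every sample the same treatment, which began in mice 6 weeks old: tamoxifen at 50 mg/kg in 2 injections a day, over 5 days, and again over 5 days after a pause of 7 days. RNA of the macrodissected dorsal or ventral hippocampus was sequenced near the 3′ ends of transcripts. Each region was sampled in controls and in cKO animals, which makes 4 groups with 3 samples in each.

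New granule neurons are added to the dentate gyrus of the hippocampus throughout adult life. Radial glia-like stem cells of the subgranular zone give rise to dividing intermediate progenitors, which carry Eomes (Tbr2), and these give rise to neuroblasts and immature neurons, which carry Dcx before they mature into granule cells. Neurod1, Sox4 and Sox11 act in the step from progenitor to neuron, and Mki67 and Top2a mark cells in division whatever their type. In bulk tissue, fewer cells of a type and less RNA per cell cannot be told apart. Several of the markers are also present in other cells, Neurod2 in mature excitatory neurons and Dcx and Sox4 at low levels outside the subgranular zone.

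Totals were 5.12 to 15.9 M counts per sample (median 9.07 M). Tet3 levels ranged from 29.2 to 37.7 CPM (dorsal controls), 32.5 to 41.8 CPM (dorsal cKO), 23.7 to 34.5 CPM (ventral controls) and 24.8 to 34.3 CPM (ventral cKO), and these ranges overlap within each region. Which part of the gene is deleted was not stated, and tags from a 3′ end that lies outside it would not check the deletion. Of 6 markers of the ventral hippocampus 5 were called higher ventrally (Dcn 2.50, Grp 1.83 and Dlk1 2.54 on the log2 scale), while of 5 tested dorsal markers 2 were lower ventrally (Lct -2.01, Lefty1 -0.60) and 1, Nov, was higher (0.93). Markers of the choroid plexus, an epithelium of the brain ventricles, varied between samples: the summed level of the 12 listed genes was 3317 to 4652 CPM in the ventral controls and 174 to 2588 CPM in the ventral cKO samples. Its most abundant transcript, Ttr, was at 2920, 3385 and 2362 CPM for ventral controls 41, 49 and 50 and at 58.1, 1839 and 40.6 CPM for ventral cKO 40, 63 and 64. For dorsal controls the sum ran from 265 to 5033 CPM, and for dorsal cKO samples from 373 to 3192 CPM. Of 9 tested genes listed for olfactory lineage neuroblasts and striatum, 1 was called higher ventrally (Drd1 0.78 ± 0.19) and 0 lower. Of 6 for excitatory hippocampal neurons, 0 were called higher and 2 lower (Neurod6 -0.41 ± 0.07, Zbtb20 -0.33 ± 0.11). Among all genes 6.67% were called higher and 7.43% lower. By mean, 5 of the 9 and 2 of the 6 were higher ventrally. The part of the choroid plexus and of these cells in the results on the markers of neurogenesis was not tested.

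Across regions, 3 of the markers were higher in the ventral hippocampus (Sox11, Neurod1 and Dcx), 1 was lower there (Igfbpl1), and no marker was called between the genotypes. A gene is called where its adjusted p in edgeR's quasi-likelihood test (Benjamini-Hochberg) is under 0.05. Of the 10 genes, 8 passed the filter on low counts in the dorsal fit and in the fit of all 12 samples, and 7 in the ventral fit, where Top2a also fell out. Eomes and Draxin passed it in no fit. In the region comparison 4 of the 8 tested markers were called, against 14.1% of all tested genes. Higher calls made up 3 of the 8, against 6.67% of all genes, and lower calls 1 of 8, against 7.43%. The markers were chosen with earlier results of these data known, so these shares are a description only. The median log2 fold change of the 8 was 0.12, and that of all 16414 genes was 0.0.

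**Figure D1:**
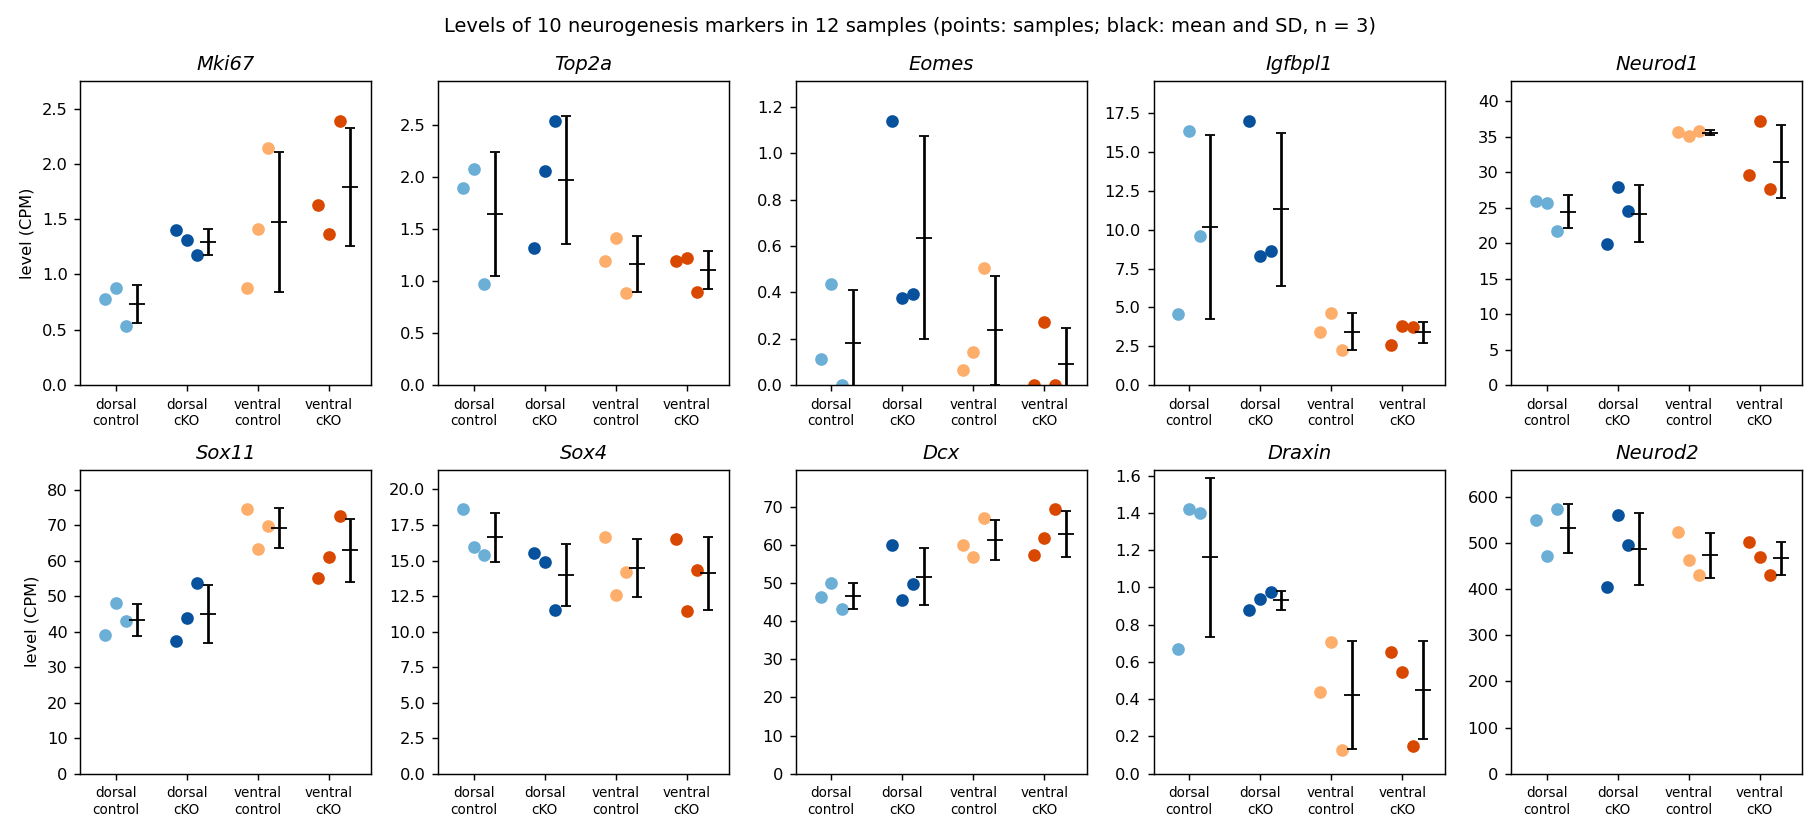
Levels of the 10 markers in CPM, 1 panel per gene with its own vertical axis from 0, in dorsal control, dorsal cKO, ventral control and ventral cKO samples. Colored points are samples and the black mark is the mean with its SD (n = 3), cut at 0 for Eomes. All 6 ventral samples lie above all 6 dorsal samples for Sox11, and 5 of the 6 dorsal samples lie above every ventral sample for Igfbpl1.

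Mki67 encodes the nuclear protein Ki-67, carried by cells in any phase of division, and lies at chr7:135689784-135716361 on the minus strand of GRCm38. Dorsal Mki67 stood at 0.780, 0.874 and 0.538 CPM for controls (samples 41, 49 and 71, an order kept for every gene) against 1.40, 1.31 and 1.17 CPM for cKO (samples 40, 43 and 64). Ventral Mki67 stood at 0.880, 1.41 and 2.14 CPM for controls (samples 41, 49 and 50) against 1.63, 1.36 and 2.39 CPM for cKO (samples 40, 63 and 64). All 3 dorsal cKO samples were above all 3 dorsal controls, as was the case for 7.82% of all genes tested there, while the ventral groups overlap, as they do for all 10 markers (13.1% of genes there do not overlap). These levels rest on 5 to 17 counts per sample. For the dorsal genotypes the log2 fold change reached 0.81 ± 0.43 toward cKO (SE, n = 3 in each group, adjusted p = 0.968) and did not pass the test, and for the ventral genotypes it was 0.37 ± 0.42 (adjusted p = 0.892). The regional difference, ventral over dorsal, was 0.69 ± 0.29 (n = 6 per region, adjusted p = 0.137), also not past the threshold.

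Top2a encodes topoisomerase II alpha, which untangles DNA before cells divide, and lies at chr11:98992943-99024189 on the minus strand. Dorsal Top2a stood at 1.89, 2.07 and 0.968 CPM for controls against 1.32, 2.06 and 2.54 CPM for cKO. Ventral Top2a stood at 1.19, 1.41 and 0.881 CPM for controls against 1.19, 1.22 and 0.896 CPM for cKO. The genotypes overlap in both regions, and dorsal control 71 and dorsal cKO 40 lie within the ventral range. The log2 fold change was 0.17 ± 0.39 for the dorsal genotypes (adjusted p = 0.99) and -0.62 ± 0.27 for the regions (adjusted p = 0.158). Of the 2 genes that mark division, Mki67 thus had its higher mean in the ventral and Top2a in the dorsal hippocampus, and neither difference passed the test. Over the 12 samples their log2 levels correlated at -0.40 (Pearson), and at -0.19 with group means subtracted, on 5 to 17 counts per sample for Mki67 and 6 to 22 for Top2a.

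The start regions of Mki67 and Top2a are shown because both genes carry, in RefSeq's promoter windows, the paired motifs of genes that are transcribed in dividing cells: the CCAAT box, bound by NF-Y, and TTTGAA, known as the cell cycle genes homology region. Each window is 300 bases on the minus strand of GRCm38.p6, chr7:135716330-135716629 for Mki67 and chr11:99024140-99024439 for Top2a, written 5′ to 3′. Capitals mark matches, on either strand, of 6 motifs: CCAAT, then TTTGAA and its variant TTCGAA, the E-boxes written CAGCTG or CAGATG, and the Sox and TCF type motif ACAAAG.
Mki67: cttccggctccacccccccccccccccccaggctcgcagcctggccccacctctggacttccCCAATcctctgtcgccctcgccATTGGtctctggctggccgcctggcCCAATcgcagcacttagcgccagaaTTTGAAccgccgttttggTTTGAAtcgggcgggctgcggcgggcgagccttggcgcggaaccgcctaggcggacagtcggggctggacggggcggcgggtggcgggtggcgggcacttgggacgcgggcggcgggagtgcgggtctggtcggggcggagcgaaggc
Top2a: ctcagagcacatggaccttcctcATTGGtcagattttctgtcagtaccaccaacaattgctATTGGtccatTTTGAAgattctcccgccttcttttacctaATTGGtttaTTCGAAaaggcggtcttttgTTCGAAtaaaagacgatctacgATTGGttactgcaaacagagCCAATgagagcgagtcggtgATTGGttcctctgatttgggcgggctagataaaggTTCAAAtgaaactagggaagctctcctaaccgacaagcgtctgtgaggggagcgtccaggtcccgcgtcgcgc
The Mki67 window holds 3 matches of CCAAT and 2 of TTTGAA, and the Top2a window holds 6 of CCAAT, 2 of TTTGAA and 2 of TTCGAA, with no overlap between matches. Of all 32851 windows 37.4% hold CCAAT, 17.9% TTTGAA and 1.56% TTCGAA. A match of letters is a description and shows no binding in this tissue.

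Eomes, the T-box factor of intermediate progenitors, was at the edge of detection, so that its levels cannot carry a comparison. Dorsal counts were 1, 4 and 0 for controls against 13, 4 and 2 for cKO, and ventral counts were 1, 1 and 4 for controls against 0, 2 and 0 for cKO. A count of 0 allows up to 0.323 CPM in dorsal control 71, 0.326 CPM in ventral cKO 40 and 0.448 CPM in ventral cKO 64, which covers counting error only. The 13 counts of dorsal cKO 40 make up the larger part of its group's total. Without the filter, the dorsal difference was 1.79 ± 0.83 (adjusted p = 0.848). The authors' deposited table lists 1.57 for it with a false discovery rate of 0.37 and the mark for no change.

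Igfbpl1, a secreted protein related to the binding proteins of insulin-like growth factors and found in neuroblasts, had the largest regional difference among the 8 tested markers. It lies at chr4:45809468-45826923 on the minus strand. Dorsal Igfbpl1 stood at 4.57, 16.4 and 9.57 CPM for controls against 17.0, 8.34 and 8.60 CPM for cKO. Ventral Igfbpl1 stood at 3.40, 4.66 and 2.26 CPM for controls against 2.61, 3.81 and 3.74 CPM for cKO. Dorsal control 41 was the lowest dorsal sample and lay just below ventral control 49, and the other dorsal samples were above every ventral sample. The ventral level was lower, with a log2 fold change of -1.67 ± 0.28 (3.18-fold lower, adjusted p = 0.000473). The dorsal samples spread more widely than the ventral ones, with group means of 10.2 ± 5.93 CPM (SD, n = 3) in controls and 11.3 ± 4.94 CPM in cKO samples against 3.44 ± 1.20 and 3.38 ± 0.675 CPM. Between the genotypes, the dorsal log2 fold change was 0.16 ± 0.35 (adjusted p = 0.99) and the ventral fold was 0.997 (SE 0.31 on the log2 scale, adjusted p = 0.997).

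Neurod1, a bHLH factor that drives progenitors toward the neuronal fate and is needed for new granule neurons to survive, was 1.39-fold higher in the ventral hippocampus. It lies at chr2:79452521-79456751 on the minus strand. Dorsal Neurod1 stood at 26.0, 25.7 and 21.7 CPM for controls against 19.9, 27.9 and 24.6 CPM for cKO. Ventral Neurod1 stood at 35.7, 35.2 and 35.9 CPM for controls against 29.6, 37.3 and 27.6 CPM for cKO. The ventral controls were above all dorsal samples, while ventral cKO 64 lay just below dorsal cKO 43. The regional log2 fold change was 0.47 ± 0.10 (adjusted p = 0.00313). Genotype differences were -0.05 ± 0.14 in the dorsal and -0.15 ± 0.13 in the ventral hippocampus (adjusted p = 0.992 and 0.864). An exon of Neurod1 overlaps the span of Cerkl on the same strand (116 counts against 3155 for Neurod1 over all samples). Whether exons of both genes overlap was not tested. The strand setting of the counting, not given in the sources used here, would not part genes of the same strand.

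Sox11 and Sox4 are close relatives, SoxC factors that switch on genes of young neurons, and their regional differences parted. Sox11 lies at chr12:27334264-27342574 and Sox4 at chr13:28948919-28953713, both on the minus strand. Dorsal Sox11 stood at 39.1, 48.1 and 42.9 CPM for controls against 37.5, 43.9 and 53.7 CPM for cKO. Ventral Sox11 stood at 74.5, 63.4 and 69.8 CPM for controls against 55.2, 61.0 and 72.6 CPM for cKO. Every ventral sample was above every dorsal sample, which held in this direction for 3.33% of all tested genes, and among the 10 markers Sox11 alone had it. The reverse order held for 0 of the 10, against 4.11% of genes. The regional log2 fold change was 0.59 ± 0.09 (1.51-fold, adjusted p = 0.000165). Between the genotypes, the dorsal fold was 1.0 (SE 0.12 on the log2 scale), on either side of no change depending on the scaling, and the ventral log2 fold change was -0.12 ± 0.12 (adjusted p = 0.874).

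Dorsal Sox4 stood at 18.6, 15.9 and 15.4 CPM for controls against 15.5, 14.9 and 11.5 CPM for cKO. Ventral Sox4 stood at 16.7, 12.6 and 14.2 CPM for controls against 16.5, 11.4 and 14.3 CPM for cKO. All 4 groups overlap. The regional difference was -0.09 ± 0.12 (adjusted p = 0.701) and the genotype difference -0.26 ± 0.16 in the dorsal and -0.02 ± 0.18 in the ventral hippocampus (adjusted p = 0.968 and 0.989). As counts within the same sample, there were 21.5 to 47.6 Sox4 counts per 100 Sox11 counts in the dorsal hippocampus and 18.8 to 29.9 in the ventral, so the ratios overlap.

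The start regions of the 2 SoxC genes are shown because the relatives parted by region, from RefSeq's windows chr12:27342669-27342968 for Sox11 and chr13:28953650-28953949 for Sox4, minus strand of GRCm38.p6. Capitals mark the same motifs as above.
Sox11: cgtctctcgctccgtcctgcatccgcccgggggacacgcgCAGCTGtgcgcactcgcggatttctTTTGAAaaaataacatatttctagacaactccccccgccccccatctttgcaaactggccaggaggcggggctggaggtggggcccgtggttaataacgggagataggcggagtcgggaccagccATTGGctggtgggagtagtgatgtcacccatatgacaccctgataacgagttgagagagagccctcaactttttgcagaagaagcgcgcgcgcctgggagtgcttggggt
Sox4: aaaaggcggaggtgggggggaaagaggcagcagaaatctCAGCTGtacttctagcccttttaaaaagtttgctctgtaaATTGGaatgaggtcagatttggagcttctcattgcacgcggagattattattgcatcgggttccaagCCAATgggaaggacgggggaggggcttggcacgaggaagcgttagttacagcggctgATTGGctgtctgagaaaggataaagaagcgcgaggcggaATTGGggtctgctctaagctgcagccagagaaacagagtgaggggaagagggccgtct
Sox11 carries 1 match of CCAAT, 1 match of TTTGAA and 1 match of CAGCTG, while Sox4 carries 4 matches of CCAAT and 1 match of CAGCTG, none overlapping. CAGCTG, an E-box of bHLH factors, occurs in 16.3% of all windows. RefSeq's table holds a window for 9 of the 10 markers, with 2 for Dcx. The entry for Igfbpl1 is missing. The Neurod1 window holds none of the 6 motifs.

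Dcx encodes doublecortin, a microtubule-binding protein of migrating and immature neurons that serves as the standard mark of adult neurogenesis, and lies at chrX:143855842-143933311 on the minus strand. Dorsal Dcx stood at 46.2, 50.0 and 43.2 CPM for controls against 60.1, 45.4 and 49.6 CPM for cKO. Ventral Dcx stood at 60.0, 56.9 and 66.9 CPM for controls against 57.4, 61.9 and 69.3 CPM for cKO. Dorsal cKO 40 reached the ventral range, and the other 5 dorsal samples lay below every ventral sample. The regional log2 fold change was 0.34 ± 0.08 (1.27-fold, adjusted p = 0.0065). With the number in the sample title as a replicate block, the value was 0.25 with an adjusted p of 0.174, so that this call was lost. The block fit draws its regional difference only from the 4 numbers found in both regions (40, 41, 49 and 64). The genotype difference was 0.12 ± 0.11 in the dorsal and 0.06 ± 0.11 in the ventral hippocampus (adjusted p = 0.968 and 0.929).

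Draxin, a secreted guidance protein that acts on growing axons and Wnt signals, had 5 to 13 counts in each dorsal and 1 to 7 in each ventral sample. Dorsal Draxin stood at 0.668, 1.42 and 1.40 CPM for controls against 0.877, 0.937 and 0.977 CPM for cKO. Ventral Draxin stood at 0.440, 0.706 and 0.126 CPM for controls against 0.651, 0.544 and 0.149 CPM for cKO. Only dorsal control 41 lay within the ventral range. Fitted without the filter, the regional difference was -1.19 ± 0.43 (adjusted p = 0.0686). The SE shifted in that fit, to 0.17 from 0.28 for Igfbpl1 and to 0.33 from 0.29 for Mki67. This adjusted p is therefore not comparable with those of the filtered fit. An exon of Draxin overlaps the span of Mad2l2 on the opposite strand, a gene with 705 counts in all against 81 for Draxin. Whether exons of both genes overlap was not tested, and without the strand setting reads of such a pair cannot be told apart.

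Neurod2, the bHLH factor that stays on in mature excitatory neurons, had levels of 405 to 572 CPM in the dorsal and 430 to 524 CPM in the ventral samples. These ranges overlap. The regional difference was -0.11 ± 0.09 (adjusted p = 0.479). In the dorsal hippocampus the genotype difference was -0.16 ± 0.12 and in the ventral 0.01 ± 0.10. Within each sample there were 3.80 to 5.43 Neurod1 counts per 100 Neurod2 counts in the dorsal and 5.92 to 8.34 in the ventral hippocampus, ranges that do not overlap. For Igfbpl1 per 100 Dcx counts the range was 9.88 to 32.8 (median 20.2) in the dorsal and 3.38 to 8.19 (median 5.52) in the ventral hippocampus, again with no overlap. Neurod1 and Dcx were themselves called higher ventrally and Igfbpl1 lower. Both ratios thus follow from those differences and add no separate result. How many gene pairs have ratios without overlap was not counted.

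**Figure D2:**
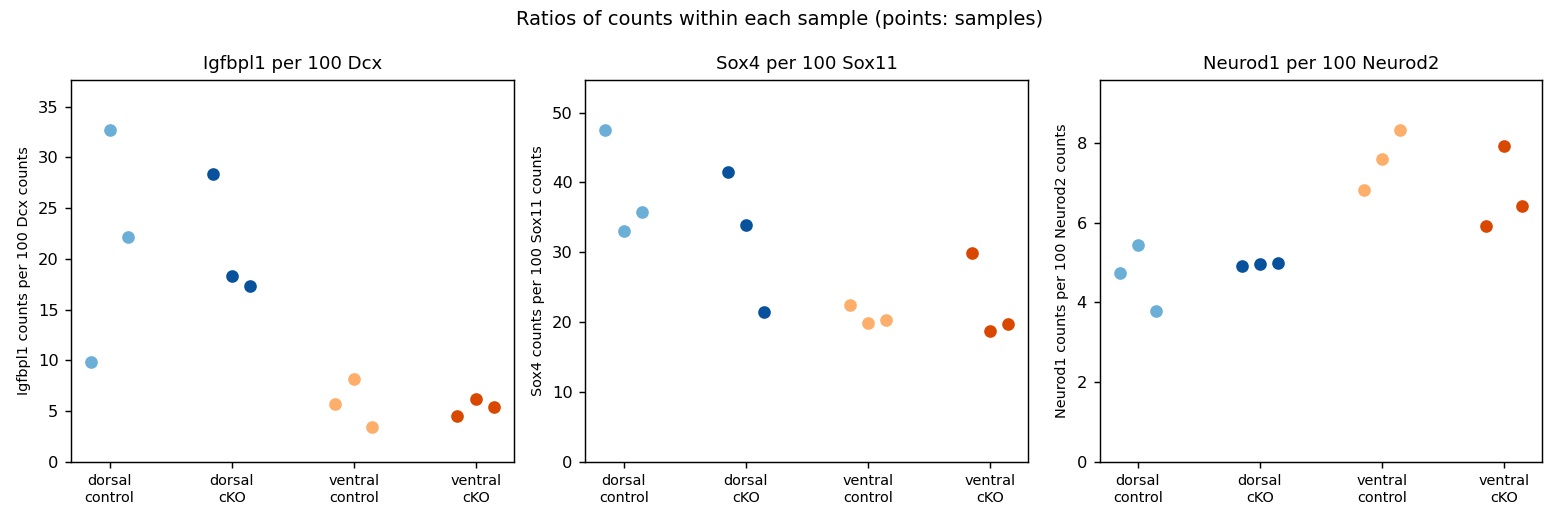
Counts of 1 marker per 100 counts of another within the same sample, for Igfbpl1 and Dcx, Sox4 and Sox11, and Neurod1 and Neurod2, by group. Points are samples. The dorsal and the ventral samples do not overlap for Igfbpl1 per 100 Dcx (9.88 to 32.8 against 3.38 to 8.19) or Neurod1 per 100 Neurod2, and they overlap for Sox4 per 100 Sox11.

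The 4 called regional differences kept their direction in each sequencing run. The runs hold counts of the same samples, so they repeat the sequencing and not the regional comparison. In runs 1, 2 and 3 the log2 fold change of Sox11 was 0.67, 0.61 and 0.59, and that of Neurod1 was 0.51, 0.50 and 0.48. Igfbpl1 had -1.86, -1.93 and -1.59, and each of these 9 values passed the test within its run. Dcx had 0.36, 0.26 and 0.39, of which the value of run 2 did not pass (adjusted p = 0.162). Run 2 holds no counts of dorsal cKO 64. With each of the 12 samples left out in turn, all 4 genes were called in 12 of 12 fits, with ranges of 0.53 to 0.65 for Sox11, 0.40 to 0.55 for Neurod1, 0.31 to 0.41 for Dcx and -1.84 to -1.43 for Igfbpl1.

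Within 1 genotype, with 3 samples per region, the 4 markers called over both genotypes had the same directions. In the controls 4 of the 8 tested markers were called, against 7.86% of all genes: Sox11 0.66 ± 0.13 (adjusted p = 0.00285), Neurod1 0.52 ± 0.14 (0.0263), Dcx 0.38 ± 0.11 (0.0488) and Igfbpl1 -1.59 ± 0.39 (0.0167). In the cKO samples 2 of 8 were called, against 6.16%: Sox11 0.53 ± 0.13 (adjusted p = 0.0169) and Igfbpl1 -1.75 ± 0.40 (0.0136). There Neurod1 (0.43 ± 0.14, adjusted p = 0.0896) and Dcx (0.31 ± 0.11, adjusted p = 0.12) did not pass. In the controls Mki67 had 0.91 ± 0.43, Top2a -0.51 ± 0.38, Sox4 -0.21 ± 0.17 and Neurod2 -0.19 ± 0.12, none called. Their values in the cKO samples were 0.46 ± 0.39, -0.72 ± 0.40, 0.03 ± 0.17 and -0.02 ± 0.12, also not called. The difference between the genotypes' regional differences was -0.06 ± 0.16 for Dcx and -0.09 ± 0.20 for Neurod1 (interaction, adjusted p = 0.96 and 0.941). The interaction values of the 8 tested markers ran from -0.44 to 0.24. None of the 8 interactions was called, against 0.0% of all genes, and 0 of 8 had an unadjusted p under 0.05, against 7.96%.

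Several calls within 1 genotype were lost or gained under other settings. With the replicate block, the control values were 0.27 for Dcx (adjusted p = 0.423), 0.44 for Neurod1 (0.15) and -1.16 for Igfbpl1 (0.116), and the cKO value of Sox11 was 0.54 (0.0646), all no longer called. These values rest on numbers 41 and 49 for controls and on 40 and 64 for cKO samples. In the controls, the call of Igfbpl1 was lost without dorsal control 49 (-1.10), ventral control 41 (-1.60) or ventral control 50 (-1.39). Neurod1 lost its call there without dorsal control 49 (0.53) or 71 (0.46) or ventral control 41 (0.50) or 50 (0.52). For Dcx the call was lost in 8 of 12 such fits, with values of 0.32 to 0.40: those without dorsal control 41, 49 or 71, ventral control 41 or 50, dorsal cKO 64, or ventral cKO 63 or 64. In the cKO samples Sox11 was not called without dorsal cKO 40 (0.42) or 43 (0.53) or ventral cKO 64 (0.43), and Igfbpl1 not without dorsal cKO 40 (-1.29) or ventral cKO 40 (-1.58). Dcx gained a call there without dorsal cKO 40 (0.45), and Neurod1 without dorsal cKO 43 (0.57). Sox11 in the controls was called in 12 of 12. Of the control calls, that of Dcx was also lost with the size factors of DESeq2 (adjusted p = 0.0507), in run 1 (0.247) and in run 2 (0.206), that of Neurod1 in run 1 (0.12) and run 2 (0.114), and that of Igfbpl1 in run 1 (0.216). In the cKO samples Neurod1 gained a call without the filter on low counts (0.0475).

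**Figure D3:**
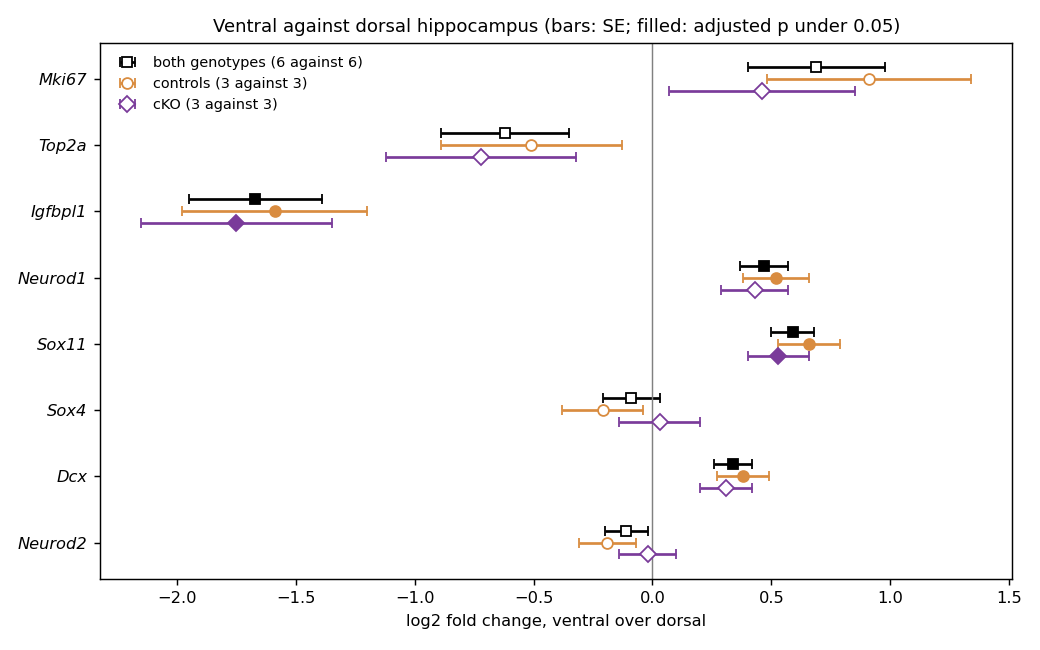
Log2 fold change, ventral over dorsal, with its SE for the 8 tested markers, over both genotypes (black squares, 6 against 6), in controls (orange circles, 3 against 3) and in cKO samples (purple diamonds, 3 against 3). Filled symbols have an adjusted p under 0.05. Igfbpl1 lies at -1.67, Dcx, Neurod1 and Sox11 at 0.34 to 0.59 over both genotypes, and Sox4 and Neurod2 near 0.

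Between cKO and control none of the markers was called in either region. The background was equally empty: 0.0% of 15692 genes in the dorsal and 0.0% of 15102 genes in the ventral hippocampus passed edgeR's test, while DESeq2 called 22 and 9 genes and limma's voom 0 and 0. At an unadjusted p under 0.05 there were 769 genes (4.9%) in the dorsal and 1092 (7.23%) in the ventral hippocampus, and 0 of the markers in either. No marker was called between the genotypes by any alternative that gave it an adjusted p. The differences of the tested markers ran from -0.26 to 0.81 (median 0.06, all genes 0.004) in the dorsal and from -0.15 to 0.37 (median 0.0, all genes -0.001) in the ventral hippocampus. Their SE was 0.11 to 0.43 and 0.10 to 0.42, so that a difference of that size could be missed. The authors' deposited table marks all 10 as unchanged in both regions.

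**Figure D4:**
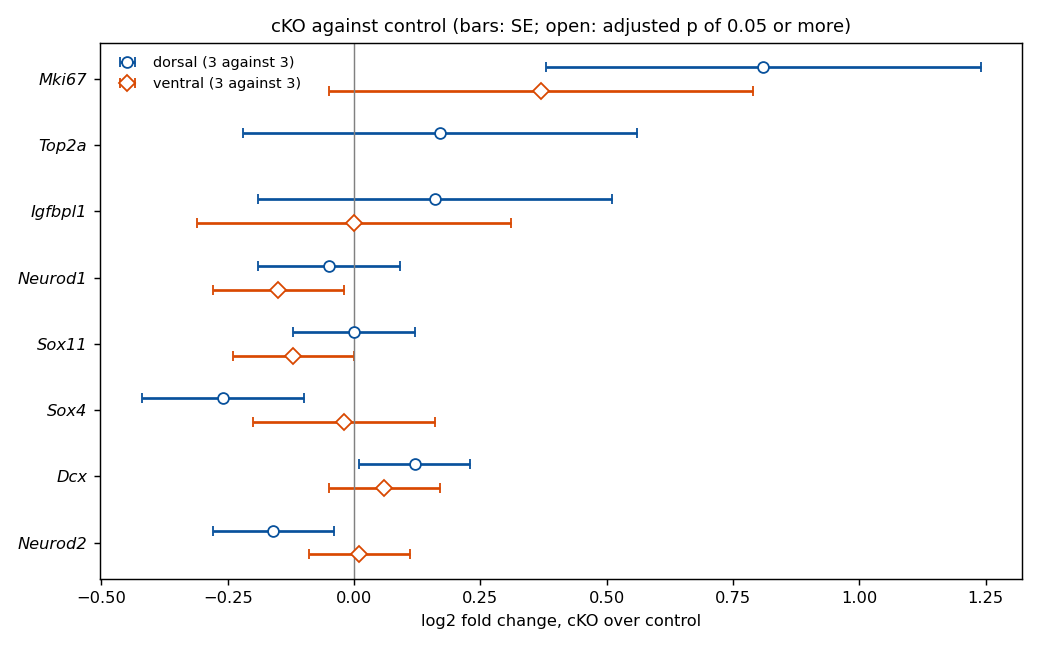
Log2 fold change, cKO over control, with its SE for the tested markers in the dorsal (blue circles) and the ventral hippocampus (orange diamonds), n = 3 per group. Open symbols have an adjusted p of 0.05 or more, which is the case for all. Mki67 in the dorsal hippocampus is farthest from 0, at 0.81 ± 0.43, and Top2a was not tested in the ventral hippocampus.

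The other genes of the lineage were taken from lists by stage, with the 10 markers left out. These lists were written with earlier results of these data known, so their counts support nothing on their own. In the region comparison, 5 of 16 tested genes of immature neurons were called higher ventrally and 0 lower, against 6.67% and 7.43% of all genes, with a median of 0.29 against 0.0 for all genes. Nnat, an imprinted gene of developing neurons, rose from 16.9 ± 2.98 CPM (SD, n = 6) in the dorsal to 47.0 ± 13.2 CPM in the ventral samples (1.48 ± 0.16, adjusted p = 6.48e-06). Gap43, a protein of growing axon ends, rose by 0.77 ± 0.12 (adjusted p = 0.00025) and the adhesion molecule Ncam1 by 0.35 ± 0.06 (adjusted p = 0.000316). Dorsal Nnat levels were 13.0 to 20.3 CPM and ventral ones 29.1 to 70.0 CPM, with no overlap, whereas Gap43 overlapped (197 to 211 against 195 to 447 CPM). These genes are also active in mature neurons of many kinds.

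Of 16 stem cell genes 13 had the lower mean ventrally (median -0.19), 7 of them at an unadjusted p under 0.05, and 3 had the higher mean. Called were 3 higher and 3 lower, against 6.67% and 7.43% of all genes, among them Fabp7, a fatty acid binding protein of radial glia, 0.57 ± 0.11, Hes5, a Notch target, 0.87 ± 0.18, and Lpar1, a lysophosphatidic acid receptor, -1.16 ± 0.11. Lpar1 is also made by oligodendrocytes. Gfap stands in the astrocyte list as well, where 6 of 7 genes had the lower mean ventrally and 1 the higher. Of these 7 astrocyte genes, 1 was called lower (Gja1 -0.34 ± 0.10) and 0 higher. The part of astrocytes in the stem cell values was not tested. Of 9 genes listed for oligodendrocyte precursors 4 were called lower ventrally (among them Olig1 -0.63, Sox10 -1.0 and Olig2 -0.49) and 0 higher. By mean, 6 were lower and 3 higher. Pdgfra stood at 23.3 CPM in the dorsal and 23.2 CPM in the ventral samples, and Cspg4 at 17.1 and 17.0 CPM. The summed level of the 9 genes was 339 to 398 CPM in the dorsal and 241 to 261 CPM in the ventral samples. The part of these markers in the result was not tested. None of the 9 genes was at 0 in a whole group. Of 7 tested genes of intermediate progenitors 2 were called higher ventrally, against 6.67% of all genes, the RNA-binding protein Elavl2 (0.23 ± 0.06) and the proneural factor Neurog2 (0.85 ± 0.26), and 0 were lower, while Sox21 had -0.16 ± 0.12. Neurog2 stood at 0.782 to 1.61 CPM in the dorsal and 1.38 to 2.26 CPM in the ventral samples, which overlap. The mean of Elavl2 was 147 CPM in the dorsal and 171 CPM in the ventral samples, that of Eomes 0.409 and 0.163 CPM. Which cells carry Elavl2 here was not tested.

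None of 21 tested cell cycle genes was called in the region comparison, against 14.1% of all genes, and 1 had an unadjusted p under 0.05. The lowest p belonged to Mcm3 (-0.32 ± 0.15) and Mcm7 (-0.30 ± 0.14), parts of the replicative helicase, and to the mitotic kinase Aurka (0.47 ± 0.23). Of 12 genes of mature granule cells 1 was higher, the calcium buffer Calb1 (1.05 ± 0.08), and 1 lower, Lct (-2.01 ± 0.22), close to the 6.67% and 7.43% of all genes. Npnt had -0.43 ± 0.18. Prox1, of the same list, had -0.37 ± 0.16 (adjusted p = 0.141), with means of 100.5 CPM in the dorsal and 77.4 CPM in the ventral samples. By mean, 7 of the 12 were higher ventrally and 5 lower. Lct is also 1 of the dorsal markers above. The share of granule cells in each dissection was not tested. Of 29 tested genes for signals that act on neurogenesis 5 were called higher and 3 lower, against the same shares of all genes, and 18 had the lower mean ventrally. Among those called were the Wnt inhibitor Frzb (0.81 ± 0.13), the secreted Dkk3 (-0.33 ± 0.06) and the ligand Wnt3 (-1.10 ± 0.21).

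**Figure D5:**
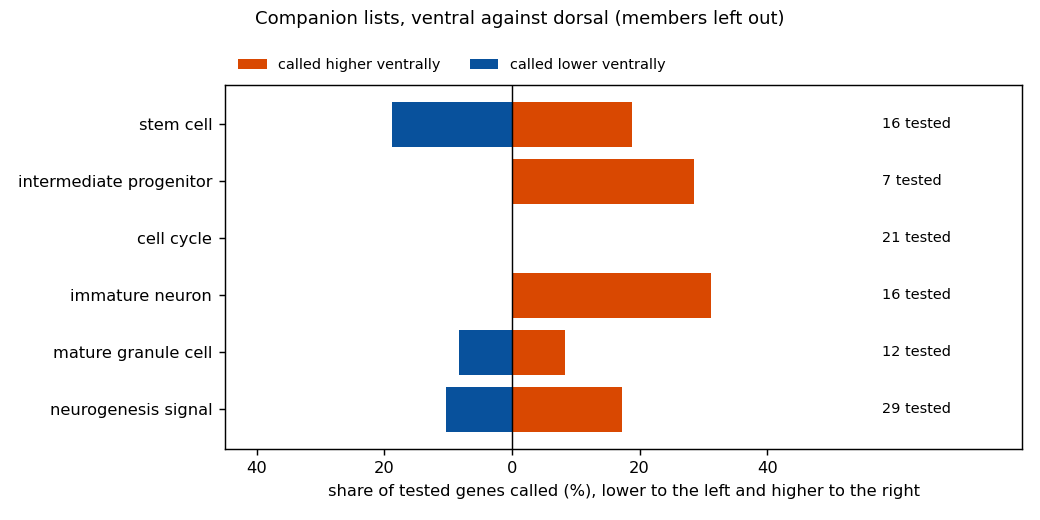
Share of the tested genes of each list, with the 10 markers left out, that was called higher (orange, to the right) or lower (blue, to the left) in the ventral than in the dorsal hippocampus, in percent. Of immature neuron genes 5 of 16 were higher and 0 lower, of stem cell genes 3 and 3 of 16, and of cell cycle genes 0 of 21 in either direction. The lists were written with earlier results of these data known.

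For the genotypes, none of the companion genes was called in either region. The lowest unadjusted p in the dorsal hippocampus was that of Elavl2 (0.23 ± 0.09, adjusted p = 0.932), followed by Aurka (-0.69 ± 0.32, adjusted p = 0.968). In the ventral hippocampus it was that of Tdo2, a tryptophan-degrading enzyme of granule cells (1.25 ± 0.30, adjusted p = 0.608), and then of Bmp6 (-1.45 ± 0.41, adjusted p = 0.608). Immature neuron genes had a median of -0.02 in the dorsal and 0.06 in the ventral hippocampus. Stem cell genes had -0.08 and -0.01, cell cycle genes -0.03 and -0.05, and signal genes -0.02 and -0.02. For intermediate progenitor genes the medians were 0.09 and 0.07. Mature granule cell genes lay farther from 0, at -0.17 in the dorsal and 0.18 in the ventral hippocampus. Of these 12 genes, 8 had the lower mean in dorsal cKO and 10 the higher mean in ventral cKO samples. Choroid plexus markers differ between the ventral genotypes as given above, and their part in these values was not tested.

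Among 11445 genes with a mean of at least 5 CPM, those most like Dcx in their log2 level over the 12 samples were 0610012G03Rik (Pearson r = 0.95), Mrpl37 (0.93), Fdft1 (0.93), Trappc4 (0.93) and Faap20 (0.91). With group means subtracted they were 0610030E20Rik (0.95), 0610012G03Rik (0.93), Hsdl1, Nudt18 and Trappc4 (0.91 each). Among the markers themselves, Dcx correlated with Sox11 at 0.71 over the 12 samples and at -0.03 with group means subtracted. Sox11 and Igfbpl1 likewise had -0.75 and -0.02. Dcx and Neurod2 had -0.70 and -0.81. These are descriptions over 12 samples. Within a sample, all genes share its library and depth, and samples of the same title number may share an animal.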

How the data were processed

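The authors deposited 1 table per region with whole-number counts per gene and run, made with cutadapt, HISAT2 and featureCounts on GRCm38, per the submitters' processing notes. Tool versions, the annotation and the strand setting: not given in the sources used here. The tables also hold a signal per run, which the authors scaled to library size, and, per the file headers, the authors' log2 fold change, log2 CPM, likelihood ratio score, p-value and false discovery rate from edgeR. Only the counts were tested here.

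Counts were summed over the runs of a sample (35 runs, 12 samples). Genotype was tested within each region, and region and interaction over all 12 samples jointly. The test was edgeR's quasi-likelihood test (edgeR 4.0.16, R 4.3.3) with TMM scaling, filterByExpr (minimum count 10) and Benjamini-Hochberg adjustment over all tested genes at 0.05. The fits were tested on simulated data. DESeq2 1.42.0, limma 3.58.1 (voom), other scalings and filters, single runs, left-out samples and a replicate block were alternatives. Exact permutation of 3 against 3 samples gives no p under 0.1 and was not used. The median SE was 0.151 (dorsal), 0.161 (ventral) and 0.119 (region) on the log2 scale, the precision that 5.12 to 15.9 M counts per sample and these sample numbers gave.

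Title numbers are read as animals, since 4 numbers occur in both regions with 1 genotype each, although the labels do not state it. Only the block and correlation fits use the numbers. The region test treats all 12 samples as independent, and where nothing says that samples came from separate animals, p-values measure only the spread between these samples. Deviations from the group means of samples with the same number correlated at 0.0353 (40), 0.106 (41), 0.0761 (49) and -0.107 (64). The markers and lists were chosen with earlier results of these data known, so their shares called are descriptions and support nothing on their own. All 10 markers have their levels or the range of these given, and those tested have their values in the region and genotype comparisons. For the interaction, the main fit's values are given by gene for Dcx and Neurod1 only. Of a list the 3 other genes with the lowest p are named (fewer where the account is shortened, and in places more). Gene positions come from GENCODE M21, which held 31713 of 31766 identifiers, and promoter windows from RefSeq.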

Additional observations from a re-analysis of the deposited data

How the results depend on the processing

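The 4 regional calls over both genotypes kept their direction under every alternative, and their side of the threshold except for Dcx in run 2 alone and with the replicate block, as given above. The number of genes called moved by more than 1.5 times under these settings, and the cause was not tested. Single runs hold fewer counts, and run 2 also lacks dorsal cKO 64. The block leaves fewer degrees of freedom and takes the regional difference only from numbers found in both regions. In the dorsal genotype comparison (0 genes) DESeq2 called 22, no filter 94, run 1 alone 1, and leaving out a sample 0 to 25 (25 without dorsal control 49). In the ventral one (0 genes) DESeq2 called 9, no filter 302, run 1 alone 3, run 2 alone 4, and leaving out a sample 0 to 55 (55 without ventral cKO 63). The region comparison (2313 genes) gave 1149 in run 1, 1346 in run 2 and 1411 with the replicate block, and 1844 to 2261 without a sample. Within controls (1290) these were 675, 835 and 643, and 794 to 1292 without a sample (843 without dorsal control 41, 794 without 71). Within cKO samples (1011) they were 423, 463 and 513, and 644 to 1074 without a sample (644 without ventral cKO 63, 645 without 64). The interaction (0 genes) gave 34 by DESeq2, 265 with no filter, 1 in run 2, and 0 to 4 without a sample (4 without dorsal cKO 40, 1 without dorsal cKO 64, 3 without ventral control 41).

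Values that changed sign were uncalled. For the dorsal genotypes, Sox11 was -0.01 with the size factors of DESeq2, -0.002 by DESeq2, -0.02 by voom, -0.01 at a mean of at least 10 counts, -0.06 in run 1 and -0.16 in run 2. For the ventral genotypes, Neurod1 was 0.01 in run 2, Igfbpl1 was 0.001 with the size factors of DESeq2, 0.003 by DESeq2 and 0.02 by voom, Neurod2 was -0.01 with upper quartile scaling and -0.04 in run 1, and Sox4 was 0.01 in run 1. Across regions, Sox4 was 0.07 in run 3 and Neurod2 was 0.02 with the replicate block. Within cKO samples, Neurod2 was 0.01 in run 2, 0.004 in run 3 and 0.10 with the replicate block, and Sox4 was -0.12 in run 1 and -0.15 in run 2. In the interaction, Mki67 was 0.18 with the replicate block, Dcx 0.03 in run 1, Neurod1 0.05 in run 2 and Igfbpl1 0.46 in run 2.

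Without a sample each, the dorsal genotype values ran from -0.09 to 0.41 for Top2a, -0.02 to 0.21 for Dcx, -0.19 to 0.07 for Neurod1, -0.31 to 0.65 for Igfbpl1 and -0.12 to 0.11 for Sox11. The ventral ones ran from -0.004 to 0.12 for Dcx, -0.21 to 0.22 for Igfbpl1, -0.06 to 0.10 for Neurod2 and -0.17 to 0.11 for Sox4. Within cKO samples they ran from -0.13 to 0.10 for Neurod2 and -0.11 to 0.16 for Sox4. In the interaction they ran from -0.44 to 0.05 for Top2a, -0.16 to 0.08 for Dcx, -0.24 to 0.04 for Neurod1, -0.64 to 0.31 for Igfbpl1 and -0.23 to 0.01 for Sox11. A fit with the title number as a correlation (voom with duplicateCorrelation), chosen after seeing the data, called 2497 genes across regions and kept all 4 calls. DESeq2 gave no adjusted p for 13 of the markers' values. At 0 to 22 counts per sample, Eomes, Draxin, Mki67 and Top2a are limited by depth.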
